A study of Nothobranchius furzeri with 2 samples.

Results

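The genes of mitochondrial carriers and uncoupling proteins were followed across age, sex and germ cell removal in the turquoise killifish (Nothobranchius furzeri, GRZ strain). The members are the 47 lines, of 18529 annotated gene lines in the count table, whose name begins with SLC25 (44 lines) or with UCP followed by a digit (3 lines). Germ cells had been removed by injecting embryos with a morpholino against dnd, a gene that germ cells need, and control fish had received a control morpholino. Libraries were made by BRB-seq, in which each sample's cDNA receives a barcode at its 3′ end, samples of 1 tissue are pooled and amplified, and unique molecular identifiers (UMIs) are counted per gene. The data analysed here comprise 60 libraries, which form 12 groups of 5. In female liver the groups were control and germ cell–removed fish at 1.5 months (young) and at 3 months (old). In skeletal muscle the same 4 groups were available in females and in males. Germ cell markers gave at most 8 counts in any of the 12 groups, so the removal itself cannot be checked in these tissues. The sources do not say whether a liver and a muscle library with the same number came from 1 fish.

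Most carriers of the SLC25 family sit in the inner mitochondrial membrane and move metabolites, nucleotides, phosphate and cofactors between the cytosol and the matrix. ADP/ATP carriers and the phosphate carrier bring in what ATP synthase needs and send out the ATP made. Uncoupling proteins belong to the same family. UCP1 of mammals lets protons return to the matrix without making ATP and drives heat production in brown fat. UCP3 is found mainly in the skeletal muscle of mammals, where its transport role is not settled.

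Depth differed between groups. Female livers held 28062 to 256671 UMIs and muscles 80573 to 221897, and all 10 germ cell–removed female livers, but no control female liver, carried the mark of subsampling to a fixed number of reads. In muscle, 3 of 5 young germ cell–removed females and 3 of 5 young control males carried it. All libraries of the remaining muscle groups did. Levels are given as CPM, counts scaled to a common library total, and fold changes come from quasi-likelihood fits in edgeR with TMM scaling (trimmed mean of M-values), for genes with at least 10 counts in the libraries compared. Vitellogenins took 15 to 23.2% of the counts of control female livers and at most 0.017% in germ cell–removed livers. The median gene of the liver test lay at a log2 fold change of 0.44 in both young and old fish (germ cell–removed over control). It lay at 0.68 and 0.58 on plain library sizes, so a member's change is also given relative to it. Of the liver markers, all 10 matched lines were counted in each liver group, with 1.74 to 3.01% of counts in control and 6.94 to 9.99% in germ cell–removed libraries. Skeletal muscle markers (4 lines for 9 names) gave at most 1 count in any liver group, and 0.29 to 1.0% of counts in muscle. Counts from the tissue as a whole cannot separate fewer cells of a type from less RNA per cell.

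Few of the 47 lines were counted deeply. In female liver 20 had at least 10 counts in all, 17 had 1 to 9 and 10 had none. In muscle 22 had at least 10, 18 had 1 to 9 and 7 had none, and 2 lines (SLC25A37 and SLC25A51) had no count in either tissue. The members together took 0.32% ± 0.02 of the counts of young control livers (mean ± SD, n = 5) and 0.50% ± 0.05 in young germ cell–removed livers. In old livers the shares were 0.36% ± 0.07 and 0.50% ± 0.06. In muscle the group means ran from 0.26 to 0.28% in young and from 0.33 to 0.44% in old fish. Of the 13439 member counts in liver, 10098 fell on a single ADP/ATP carrier line, SLC25A6 (Nfu_g_1_005294). In muscle, SLC25A3, UCP3 and the 2 SLC25A6 lines held 10585, 4401, 3393 and 2483 of 23158 counts.

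Which carriers differed after germ cell removal in female liver was asked first. UCP1 was higher in germ cell–removed livers at both ages, and the calcium-regulated ATP-Mg/phosphate carrier SLC25A25A was higher in old ones. SLC25A3, the phosphate carrier, was higher in young ones. The SLC25A25A call is description only, for the reason given with its values below. Of 12 members tested in young fish, 2 passed an adjusted p-value under 0.05, both higher, where 9.64% of all 5459 genes tested passed and 7.95% were higher. Of 14 tested in old fish, 2 passed, both higher, beside 9.06% of 5576 genes, with 7.08% higher. The members' median log2 fold change was 0.47 in young fish against 0.44 over all genes, and 0.71 against 0.44 in old fish. With 2 calls at each age nothing is read from these shares, and the account is of single members.

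UCP1 (Nfu_g_1_007038) lies on the plus strand of sgr02:13852428-13859231 in the GRZ assembly that the deposited table uses. The 5 young control livers had 20.5, 36.4, 42.3, 38.7 and 26.4 CPM, from 1 to 7 UMIs each. The young germ cell–removed livers had 100.5, 70.3, 122, 240.4 and 79.3 CPM, from 13 to 46 UMIs each. All 5 germ cell–removed livers lay above every control liver. The fitted difference was 1.54 on the log2 scale (SE 0.39, adjusted p = 0.00337 by edgeR), or 1.1 above the median gene. It missed the threshold once replicate 4, the highest library, was left out (1.06, adjusted p = 0.0942). It also missed it with the scaling shifted so that the median gene lay at 0 (adjusted p = 0.0845), with filterByExpr, a stricter filter on low counts (0.0717), with DESeq2 (0.0616) and with all libraries thinned to the smallest total (0.289).

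The old control livers had 18.8, 35.6, 50.1, 32.2 and 45.5 UCP1 CPM, and the old germ cell–removed livers 208, 292, 282, 38.9 and 107 CPM. Here the groups overlapped, since replicate 4 of the germ cell–removed livers, with 8 UMIs, lay within the control range while the other 4 lay above it. The difference was 2.21 on the log2 scale (SE 0.43, adjusted p = 1.1e-05 by edgeR), a fold of 4.63. It missed the threshold with libraries thinned to the smallest total (adjusted p = 0.107), and UCP1 was not among the genes that filterByExpr left to test. UCP1 did not differ detectably between the ages, with log2 fold changes (old over young) of -0.12 in control and 0.53 in germ cell–removed livers (adjusted p = 0.979 and 0.614). UCP1 stands in a response-to-estrogen list that the study drew from the higher genes of these samples, so its direction is not independent evidence. The study also found response-to-estrogen terms among the lower genes of germ cell–removed female livers. With estradiol reduced in these females, it reported estrogen signaling as lowered.

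SLC25A25A (Nfu_g_1_017207, plus strand of sgr11:8214781-8219638) belongs to the carriers that exchange ATP-Mg for phosphate and are switched by calcium. Control livers were near the limit of detection, with 61.6, 18.2, 14.1, 11.1 and 26.4 CPM in young and 0, 0, 25.1, 24.2 and 0 CPM in old fish, which came from 0 to 3 UMIs each. Young germ cell–removed livers had 10.1, 30.8, 11.8, 5.23 and 6.10 CPM. Old germ cell–removed livers had 139, 245, 341, 77.7 and 42.6 CPM, from 8 to 76 UMIs. The old germ cell–removed livers thus lay above all old controls and all young germ cell–removed livers, and ranged widely among themselves.

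In old livers the SLC25A25A difference was 3.61 on the log2 scale (SE 0.55, adjusted p = 3.1e-09 by edgeR). SLC25A25A reached the minimum count for that test through the germ cell–removed livers alone, so the call is given as description only. In young livers the difference was -0.85 (SE 0.64, adjusted p = 0.490). Between old and young germ cell–removed livers the difference was 3.52 (SE 0.51, adjusted p = 5.9e-05), and between old and young control livers it was -0.93 (adjusted p = 0.848). The effect of germ cell removal differed between the ages by 4.67 (SE 0.92, adjusted p = 0.00164). This was 1 of 20 members tested, beside 0.109% of 7349 genes called in that test, with 0.0953% higher. With RLE size factors, the median-ratio scaling of DESeq2, or plain library sizes the difference between the ages missed the threshold (adjusted p = 0.0633 and 0.0571). It also missed it with filterByExpr (0.107) and thinned libraries (0.852), and DESeq2 called no member in that test. The calls in old livers and between the ages of germ cell–removed fish were kept without any 1 library, at 3.25 to 4.82 and 3.11 to 4.09, but filterByExpr left SLC25A25A out of both tests.

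**Figure D1:**
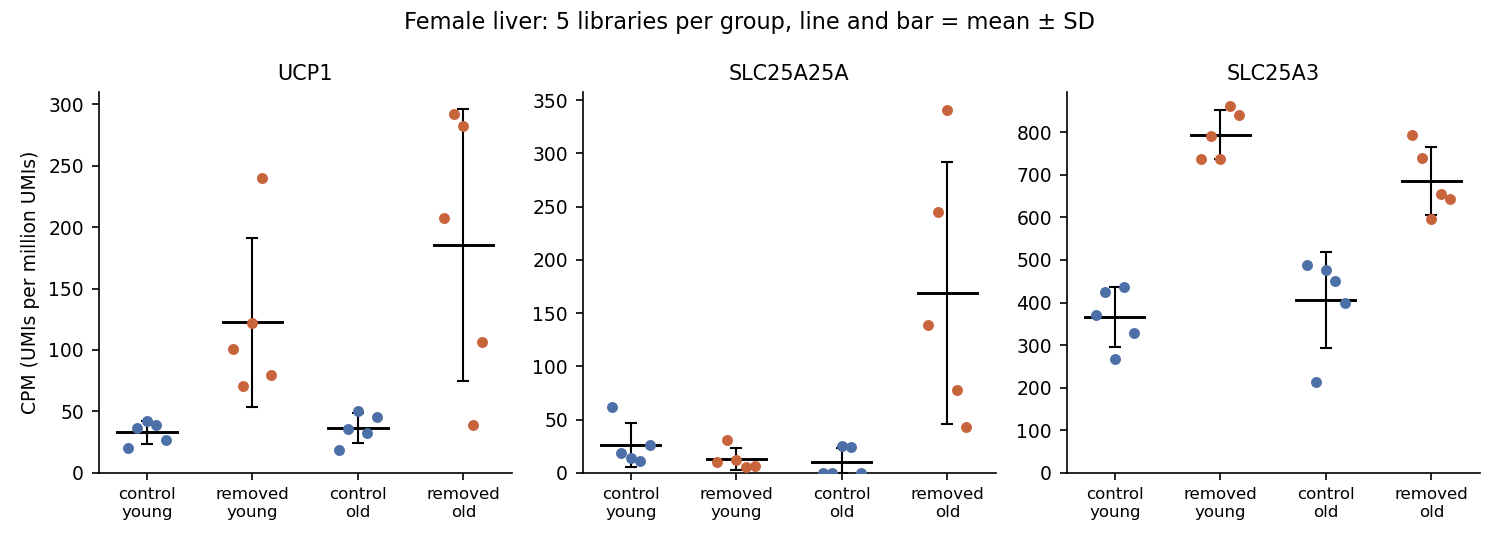
CPM of UCP1, SLC25A25A and SLC25A3 in female liver (vertical axes), with 1 point per library for control (blue) and germ cell–removed (orange) fish, and the mean ± SD of 5 libraries in black, bars ending at 0 where they would go below it. Young germ cell–removed livers lie above all young controls for UCP1 and SLC25A3, and the old germ cell–removed livers reach 341 CPM for SLC25A25A.

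SLC25A3 (Nfu_g_1_004741, minus strand of sgr01:60935839-60960403) carries phosphate into the matrix. The young control livers had 370, 425, 268, 437 and 330 CPM, and the young germ cell–removed livers 738, 792, 738, 862 and 842 CPM. The groups did not overlap, and the fitted difference was 0.85 on the log2 scale (SE 0.20, adjusted p = 0.000973 by edgeR). Relative to the median gene the difference was 0.42, and with the median gene set to 0 it missed the threshold (adjusted p = 0.271), as it did with thinned libraries (0.267). It also missed it without control replicate 1, 3 or 5 (adjusted p = 0.0623, 0.112 and 0.0861). In old fish the control mean was 405 ± 113 CPM and the germ cell–removed mean 686 ± 79.6 CPM (SD, n = 5), again without overlap, and the difference of 0.61 did not pass (adjusted p = 0.154).

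The ADP/ATP carrier line SLC25A6 (Nfu_g_1_005294, plus strand of sgr11:14978368-14982389) averaged 2577 ± 144 CPM in young controls and 3763 ± 426 CPM after germ cell removal (SD, n = 5). The 5 germ cell–removed livers lay above all controls on this scale, but the TMM fit gave 0.34 (SE 0.16, adjusted p = 0.209), below the median gene. Plain library sizes gave 0.55 (adjusted p = 0.00155), beside a median gene of 0.68. With the median gene set to 0, filterByExpr or thinned libraries the sign turned (-0.11, -0.17 and -0.01). In old livers the means were 2886 ± 679 and 3579 ± 367 CPM, and the fitted difference was 0.20 (adjusted p = 0.712).

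Other members in liver rested on few counts. The pyrimidine nucleotide carrier SLC25A36 (2 OF 2) (Nfu_g_1_014100) had 2 UMIs over the 5 young control livers and 19 over the germ cell–removed ones, or 2.32 ± 3.18 against 18.5 ± 7.80 CPM (SD, n = 5). Its fitted difference was 1.88 (SE 0.88, adjusted p = 0.202). SLC25A20, which brings acylcarnitines into the matrix for fatty acid oxidation, averaged 58.9 ± 27.9 CPM in young controls and 43.0 ± 11.7 CPM after germ cell removal. Its difference was -0.54 in young and 0.36 in old fish, and neither passed (adjusted p = 0.477 and 0.770). The glutathione carrier SLC25A39 had 60.1 ± 28.2 and 63.7 ± 16.4 CPM in the young groups. Between control livers of the 2 ages none of 8 members passed edgeR's test (DESeq2 also called 0), beside 1.95% of 3385 genes. None of the 8 reached an unadjusted p-value under 0.05, beside 340 of the 3385 genes. In germ cell–removed livers SLC25A25A was the 1 member called of 18, beside 3.6% of 6694 genes, with 1.85% higher.

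**Figure D2:**
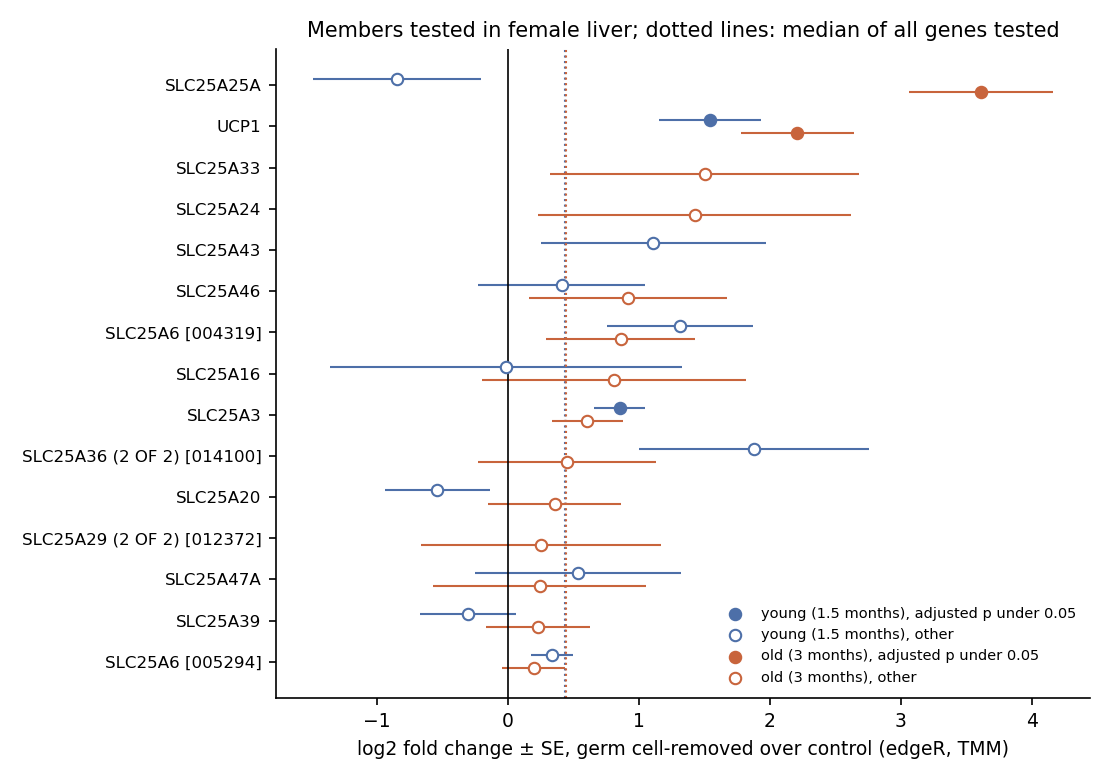
Log2 fold change of germ cell–removed over control female livers with its standard error (horizontal axis, edgeR after TMM), for every member tested in young fish (blue) or old fish (orange). Filled points passed an adjusted p-value under 0.05, and the dotted lines mark the median of all genes tested, at 0.44 for both ages. SLC25A25A stands at 3.61 in old and -0.85 in young fish.

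Markers of the exocrine pancreas, which fish liver samples can hold, differed in share between these groups. Their 12 lines took 1.35 to 2.69% of counts in young control and 1.94 to 7.95% in young germ cell–removed livers, and 0.57 to 1.60% and 0.79 to 3.05% in the old groups. CPA1 was at 0 in young control livers. The liver markers took a larger share in germ cell–removed livers, as given above. They include FGA, FGB and FGG, which the study reported as up-regulated in germ cell–removed female livers. Their share is therefore not a measure of liver cells alone. The single matched adipose line took at most 0.0071% of any liver. The part of the pancreas, liver and adipose markers in the member results was not tested. Median depth was 75869 UMIs in control and 199071 in germ cell–removed young livers, and 53237 and 205936 in old livers, so members at 0 to 3 UMIs in a control liver were not measurable below that level.

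In muscle, no member passed in any of the 4 comparisons of germ cell–removed with control fish. The numbers of members tested were 13 in young females, 19 in old females, 13 in young males and 17 in old males. Over all genes 0.106, 0.198, 0.136 and 0% passed in the same order. At an unadjusted p-value under 0.05 by edgeR stood 327 of 4696, 351 of 6050, 215 of 4414 and 189 of 5778 genes. The members at that level numbered 0, 1, 2 and 1, and DESeq2 called 0 members in each. The 2 in young males were SLC25A3 (log2 fold change 0.35, unadjusted p = 0.00489 by edgeR) and UCP3 (-0.54, unadjusted p = 0.00698). UCP3 passed there once replicate 3 of the germ cell–removed males was left out (-0.89, adjusted p = 0.0199). That library was the highest of its group, so nothing is read from this value.

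UCP3 (Nfu_g_1_005085, minus strand of sgr11:17504898-17510769) varied widely in muscle between fish of a group. Old control females had 546, 1613, 2500, 67.6 and 996 CPM, and old germ cell–removed females had 1134, 2050, 1886, 717 and 261 CPM. Old control males had 196, 584, 811, 599 and 877 CPM, and old germ cell–removed males had 92.8, 116, 153, 1102 and 268 CPM. Replicate 4 of the germ cell–removed males stood above every control male, while 3 of the other 4 lay below the lowest control male.

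The UCP3 difference in old males was -0.82 (SE 0.42, adjusted p = 0.988 by edgeR). Only in this comparison did all 5 pairs of libraries with the same replicate number deviate together with a correlation above 0.1. With the number as a block the difference was -1.16 (SE 0.23, adjusted p = 0.00178 by edgeR). In the replicate 4 pair the germ cell–removed male was higher (1102 against 599 CPM), while in each other pair the control male was. What a shared number stands for is not stated, so the blocked value is given as description only. Without replicate 4 of the germ cell–removed males the unblocked difference was -1.81 (adjusted p = 0.0582). In old females the difference was -0.03 (SE 0.46), and whether the effect differed between the sexes was tested and not shown (-0.80, SE 0.66, adjusted p = 0.994).

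Sex differences were asked within each age and treatment, as male over female. UCP3 was lower in young germ cell–removed males than females, and the ADP/ATP carrier line SLC25A6 (Nfu_g_1_004319) was higher. These were 2 of 13 members tested, 1 in each direction, beside 1.07% of 4466 genes, with 0.515% higher and 0.56% lower. In young control, old control and old germ cell–removed fish 0 of 14, 16 and 18 members passed, beside 0.322, 0.254 and 0.0504% of all genes. At an unadjusted p-value under 0.05 by edgeR stood 447 of 4654, 359 of 5917 and 376 of 5953 genes in these 3 comparisons. The members at that level numbered 2, 4 and 2, and DESeq2 called 1, 0 and 0 members.

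Young germ cell–removed females had 347, 317, 533, 658 and 658 UCP3 CPM, and males had 111, 196, 401, 205 and 249 CPM. The groups overlapped through 1 male, replicate 3, which lay above 2 of the females. Female replicates 4 and 5, at 658 CPM each, did not carry the mark of subsampling, whereas all 5 males did. The part of this in the difference was not tested. The difference was -0.94 on the log2 scale (SE 0.19, adjusted p = 0.00103 by edgeR). It missed the threshold without replicate 4 of the females (adjusted p = 0.0681), with filterByExpr and in 1 fit of all 8 muscle groups (adjusted p = 0.777). The other 3 sex differences of UCP3 had the same sign, at -0.50 in young control, -0.97 in old control and -1.77 in old germ cell–removed fish (adjusted p = 0.713, 0.795 and 0.212). Of these, the difference in old control fish passed without replicate 4 of the females (-1.30, adjusted p = 0.0408). The one in old germ cell–removed fish passed without replicate 4 of the males (-2.74, adjusted p = 0.000108). Each library left out was the one of its group that ran most against the difference, at 67.6 and 1102 CPM. Nothing is therefore read from these 2 values. Both differences also passed once the minimum was lowered to 1 count (adjusted p = 0.00237 and 9.3e-12). The UCP3 counts were the same there and only the set of other genes differed, so nothing more is read from these values. The tests of whether germ cell removal changed the sex difference called none of 17 members in young and none of 20 in old muscle, beside 0% of all genes in both. In each, 1 member had an unadjusted p-value under 0.05, beside 348 of 6512 and 398 of 7805 genes, and DESeq2 called 0 members.

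SLC25A6 (Nfu_g_1_004319) lies on the minus strand of sgr01:38431641-38433359. Young germ cell–removed females had 323, 335, 228, 178 and 323 CPM, and males had 429, 570, 221, 334 and 516 CPM. Of the males, 3 lay above every female, and the difference was 0.69 (SE 0.18, adjusted p = 0.0233 by edgeR). This call was lost on plain library sizes (adjusted p = 0.121), with filterByExpr (0.118), DESeq2 (0.139), edgeR's newer fit with legacy off (0.110) or thinned libraries (0.324), in 1 fit of all muscle groups (0.733) and without 1 of 5 libraries in turn (0.0523 to 0.293).

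In young control fish the SLC25A6 (Nfu_g_1_004319) difference missed the threshold narrowly. The females had 187, 231, 205, 305 and 264 CPM, and the males 332, 473, 395, 467 and 336 CPM. All 5 males lay above every female, and the difference was 0.80 (SE 0.18, adjusted p = 0.05003). It passed with RLE size factors (0.0194) and with DESeq2 (0.000779), and stayed short of the threshold with legacy off (0.0940) and in 1 fit of all muscle groups (0.244). In old fish the differences were 0.56 in control and 0.15 in germ cell–removed muscle, and neither passed (adjusted p = 0.675 and 0.961).

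The 2 SLC25A6 lines divided between the tissues. Both carry the name of 1 ADP/ATP carrier but lie on different sequences of the assembly. RefSeq's annotation places slc25a43 beside slc25a5, another ADP/ATP carrier gene, on chromosome 1. Since Nfu_g_1_004319 lies beside SLC25A43, it may be that gene, which was not tested. The 2 lines may share reads, so their split may depend on how reads were assigned. Of their summed counts, Nfu_g_1_004319 took 0 to 1.84% in the 20 livers and 22.5 to 61.0% in the 40 muscles. In young control muscle the share was 33.2% ± 6.82 in females and 48.3% ± 3.48 in males (SD, n = 5). It was 40.1% ± 6.29 and 51.9% ± 7.79 in young germ cell–removed, 33.7% ± 9.47 and 44.8% ± 7.34 in old control, and 38.8% ± 7.02 and 42.9% ± 6.39 in old germ cell–removed muscle. Males were higher in all 4 pairs of means. An exact permutation test, two-sided over all 252 divisions of 10 libraries, gave p = 0.00794 in young control muscle, the smallest p that 5 against 5 libraries allow, and 0.0556, 0.119 and 0.389 in the other 3. Adjusted over the 16 contrasts tested, these were 0.127, 0.339, 0.339 and 0.566. The share was chosen for display after the values of both lines had been seen. Some muscle libraries held liver transcripts, with liver markers at up to 0.165% of counts (old control males) and vitellogenins at up to 1.56% (old control females). Their part in these shares was not tested.

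Age was compared within each sex and treatment of muscle, as old over young. Of 17 members tested in control females, 17 in germ cell–removed females, 16 in control males and 15 in germ cell–removed males, 0, 1, 0 and 0 passed. Over all genes 4.08, 6.28, 5.01 and 3.42% passed. At an unadjusted p-value under 0.05 by edgeR stood 879 of 5611, 877 of 5368, 848 of 5185 and 801 of 5227 genes. The members at that level numbered 1, 3, 2 and 3, and DESeq2 called 0 members in each comparison. The 1 call was UCP3 in germ cell–removed females, where 3.19% of all genes were higher, at 0.81 on the log2 scale (SE 0.22, adjusted p = 0.0112 by edgeR). The old and young levels, given above, overlapped, with 4 of the 5 old females above all young ones and the fifth below all of them. The call was lost with DESeq2 (adjusted p = 0.393), with the median gene set to 0 (0.0806), with filterByExpr (0.0874), with legacy off (0.0826) and in 1 fit of all muscle groups (0.330). With the replicate number as a block it was lost too (0.132). It was also lost without replicate 1 or 2 of the young or replicate 2 or 3 of the old germ cell–removed females (0.108 to 0.155).

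Young control females had 242 to 939 UCP3 CPM with a median of 468, and young control males 146 to 443 CPM with a median of 408. The age differences of UCP3 were 0.68 in control females, 0.24 in control males and -0.04 in germ cell–removed males, and none passed (adjusted p = 0.598, 0.711 and 0.972).

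SLC25A3 showed how far the age comparison turned on scaling. Control females had 1104, 1294, 1525, 1146 and 1179 CPM when young and 1854, 1934, 1779, 1676 and 1682 CPM when old, without overlap. Old control males (1321 to 1975 CPM) lay above all young ones (1112 to 1233 CPM), and old germ cell–removed females (1530 to 1950 CPM) above all young ones (1114 to 1442 CPM). On plain library sizes these differences were 0.51, 0.49 and 0.48 and passed (adjusted p = 0.0199, 0.0442 and 0.0205), while the median gene lay at 0.39, 0.73 and 0.64. In germ cell–removed males the plain difference of 0.29 did not pass (adjusted p = 0.241). After TMM the first 3 were 0.12, -0.05 and 0.01 (adjusted p = 0.813, 0.941 and 0.990), with the median gene at 0.01, 0.19 and 0.18. The skeletal muscle markers moved with age too, from 0.67 to 1.0% of counts in young to 0.29 to 0.66% in old libraries. Their part in these differences was not tested.

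**Figure D3:**
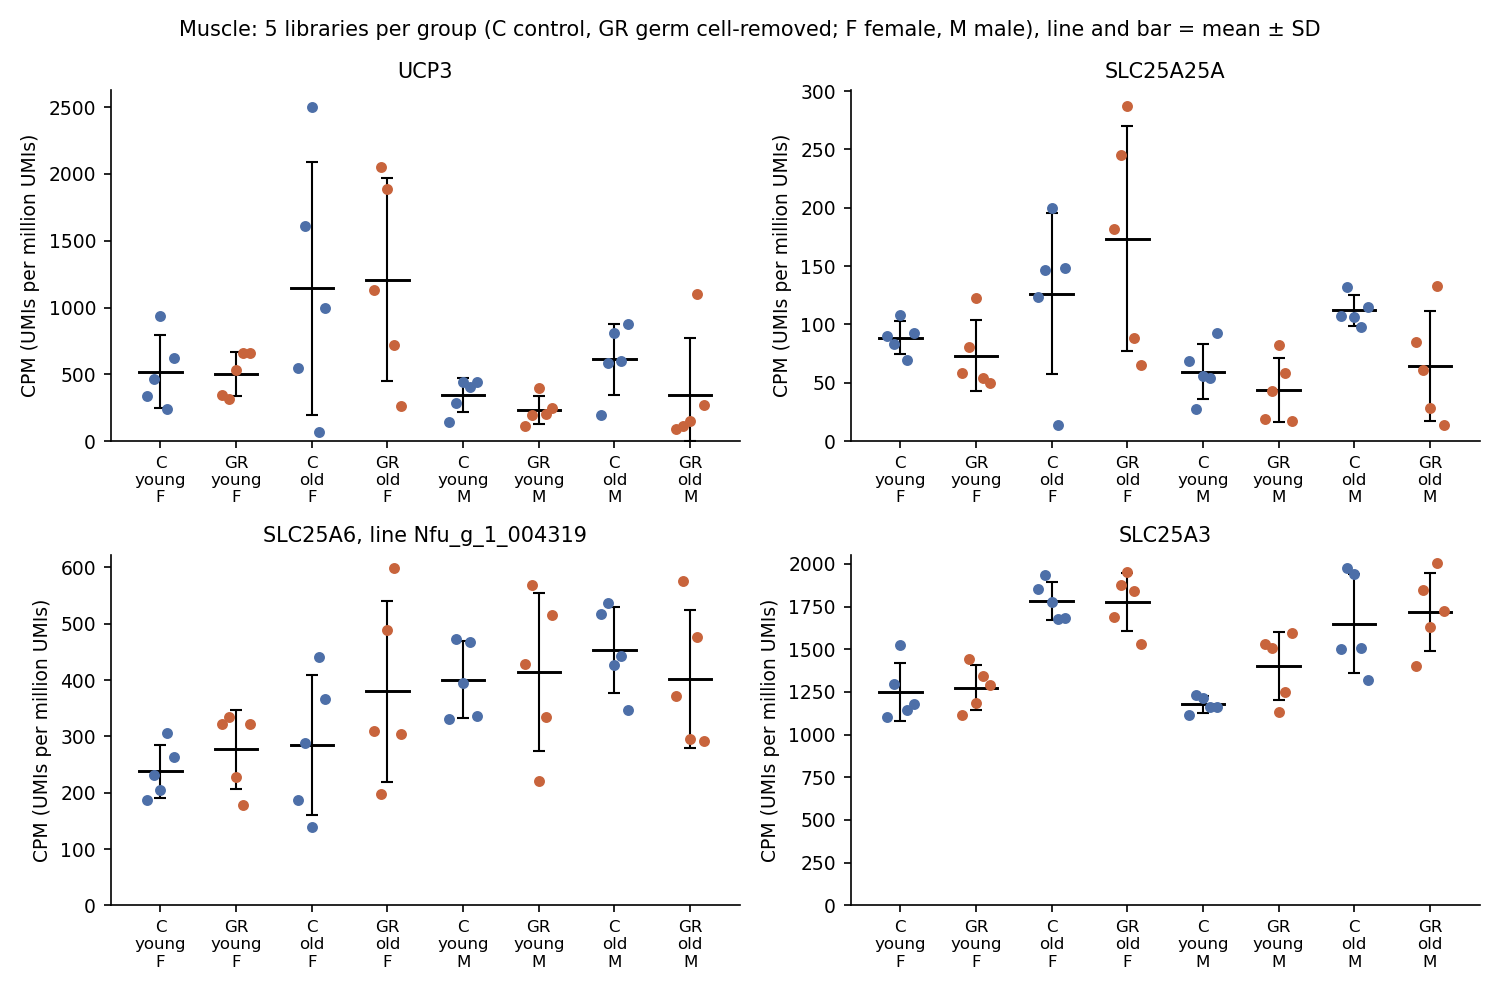
CPM of UCP3, SLC25A25A, the SLC25A6 line Nfu_g_1_004319 and SLC25A3 in the 8 muscle groups (vertical axes from 0), with 1 point per library, control in blue and germ cell–removed in orange, and the mean ± SD of 5 libraries in black, bars ending at 0 where they would go below it. UCP3 ranges from 67.6 to 2500 CPM among old control females, whereas SLC25A3 stays between 1104 and 2007 CPM in all 40 libraries.

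UCP3 and SLC25A25A varied together between muscle libraries of the same group. Old germ cell–removed females had 182, 246, 287, 88.1 and 65.4 SLC25A25A CPM, and the 3 highest were the 3 highest for UCP3. Old control females had 123, 147, 199, 13.5 and 149 CPM, and replicate 4 was the lowest for both genes. In old germ cell–removed males, with 85.1, 61.3, 28.3, 133 and 13.9 CPM, replicate 4 was the highest for both. The remaining libraries of that group ran in opposite order. UCP3 was at 92.8, 116, 153 and 268 CPM where SLC25A25A was at 85.1, 61.3, 28.3 and 13.9 CPM. The positive relation in that group therefore rested on replicate 4.

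Over the 40 muscle libraries, as deviations of log2(CPM + 10) from the group means, Pearson's r between UCP3 and SLC25A25A was 0.648 and Spearman's rho 0.505. By 100000 permutations within groups, p was 0.002 and 0.0032, and adjusted over the 15 pairs of the 6 members with at least 400 muscle counts it was 0.030 and 0.048. Without the 2 libraries farthest from the median for UCP3, r was 0.441 (permutation p = 0.038), and r was above 0 in 7 of 8 groups. No other pair passed, and the next highest r, between the 2 SLC25A6 lines, was 0.374 (adjusted p = 0.16). For SLC25A3 and UCP3, r was 0.343 over all 40 libraries (adjusted p = 0.16) and 0.481 without the 2 farthest from the median for SLC25A3 (permutation p = 0.0021, not adjusted). These correlations were added after the data had been examined. UCP2 (Nfu_g_1_005432), which lies 1635 bases from UCP3 on the same strand, had 10 UMIs over all 40 muscles and 6 over the 20 livers, so its level could not be compared.

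**Figure D4:**
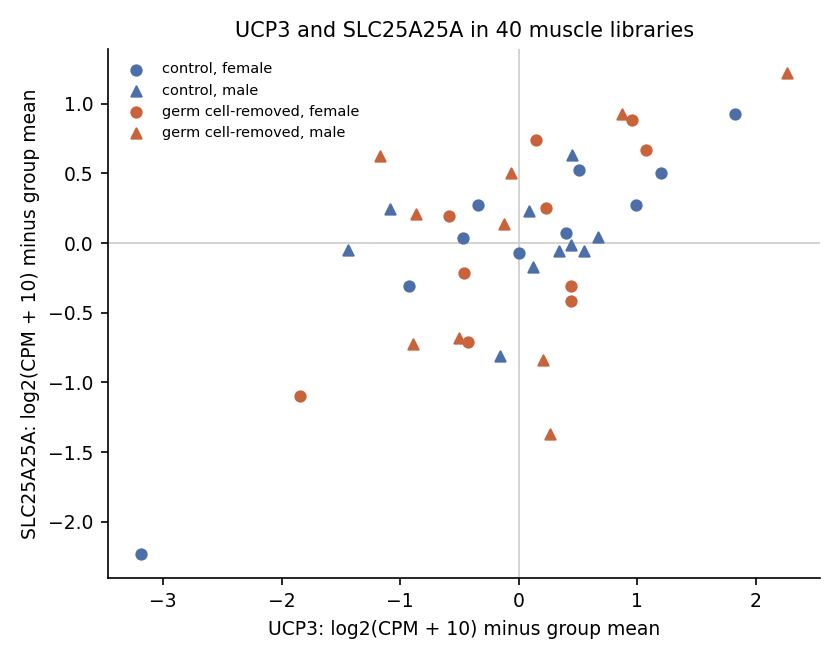
Deviation of SLC25A25A (vertical axis) against that of UCP3 (horizontal axis) from the mean of the library's group, in log2(CPM + 10), for 40 muscle libraries (circles female, triangles male, blue control, orange germ cell–removed). The library at the lower left is replicate 4 of the old control females, and r over all points is 0.648.

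Liver and muscle were compared in females of each treatment, with the ages together and 10 libraries per tissue. The tissues were amplified as separate pools, so tissue and pool cannot be told apart. Of 18 members tested in control females, 11 passed, 2 higher and 9 lower in liver, beside 47% of 7142 genes, with 15.6% higher and 31.4% lower. Of 23 tested in germ cell–removed females, 13 passed, 6 higher and 7 lower, beside 46.5% of 8526 genes, with 26.5% higher and 20% lower. The median gene lay at -0.66 and 0.26 on the log2 scale (liver over muscle), and the members' median at -1.67 and -0.39.

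The uncoupling proteins were split between the tissues. UCP3 had 0 UMIs in the 10 control livers and 1535 in the control muscles, so it was at least 245-fold higher in muscle against a floor of 3 counts over the group. In germ cell–removed females it had 4 UMIs in liver and 1526 in muscle, or 471-fold more by CPM (95% exact interval 183 to 1730, counting error only). UCP1 had 31 UMIs in control livers and 1 in control muscle, or 64.8-fold more in liver (10.8 to 2643). In germ cell–removed females it had 331 in liver and 0 in muscle, at least 89.4-fold more. Both genes passed edgeR's test in both treatments (adjusted p from 2.1e-36 to 6.7e-08). Each reached the minimum of 10 counts through 1 tissue alone, UCP3 through muscle and UCP1 through liver. Those calls are therefore given as description only.

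Among the ADP/ATP and phosphate carriers, the 2 SLC25A6 lines differed between tissues in opposite directions. Nfu_g_1_005294 was 1.94 and 2.61 higher in liver on the log2 scale (SE 0.20 and 0.15, control and germ cell–removed). Nfu_g_1_004319 differed by -4.12 and -3.05 (SE 0.33 and 0.20). SLC25A3 was lower in liver, at -2.39 and -1.33 (SE 0.21 and 0.13), with 404 and 737 pooled CPM in liver and 1536 and 1548 in muscle. With the ages together SLC25A25A was also lower in liver, at -3.08 and -1.52 (SE 0.41 and 0.30). Its pooled levels were 17.2 and 96.8 CPM in liver and 107 and 132 CPM in muscle. Germ cell–removed livers differed by age, however, with means of 12.8 CPM in young and 169 CPM in old fish. In old germ cell–removed females the livers (42.6 to 341 CPM) overlapped the muscles (65.4 to 287 CPM). The tissues were not tested within each age. SLC25A24, another ATP-Mg/phosphate carrier, was lower in control livers (1 UMI against 12, a ratio of 5.74 with interval 0.849 to 245). That call was lost with the median gene set to 0 (adjusted p = 0.125). SLC25A24 did not pass in germ cell–removed females, with 17 UMIs in each tissue.

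In other roles, SLC25A11, which exchanges 2-oxoglutarate for malate, was lower in liver in both treatments (-1.63 and -2.37, adjusted p = 0.0337 and 2.0e-05), though the control call was lost with the median gene set to 0 (0.263). So were SLC25A43, which has no settled substrate and lies 1512 bases from the SLC25A6 line Nfu_g_1_004319 on the same strand (-2.27 and -1.61), and the glycine carrier SLC25A38B, which supplies haem synthesis in other vertebrates and had 0 and 2 UMIs in liver against 14 and 11 in muscle. SLC25A16, linked to coenzyme A, was lower in control livers alone (-1.72, adjusted p = 0.0153, or 0.183 with the median gene set to 0), and whether this differed between treatments was not tested. In these roles, the calls higher in liver in germ cell–removed females were SLC25A39 (0.99, adjusted p = 0.00203 by edgeR), SLC25A36 (2 OF 2), SLC25A1B and SLC25A48. SLC25A36 (2 OF 2) stood at 1.0 (adjusted p = 0.0452 by edgeR). Its call was lost without any 1 of 12 libraries and, at 0.163, with the median gene set to 0. SLC25A39 was not called in control females, though its pooled CPM was 2.36-fold higher in liver there (interval 1.61 to 3.45). After germ cell removal that ratio was 2.01 (1.5 to 2.71). Whether it differed between treatments was not tested. The citrate carrier SLC25A1B had 10 UMIs in liver against 0 in muscle and SLC25A48 had 11 against 0, at least 2.70- and 2.97-fold more by CPM. Both reached the minimum of 10 counts through the liver libraries alone. SLC25A38B and SLC25A11 did so through muscle in both treatments, as SLC25A16, SLC25A24 and SLC25A43 did in control females. All these calls are given as description and support nothing. The carnitine carrier SLC25A20 had pooled levels of 46.9 and 47.7 CPM in liver against 55.8 and 50.6 CPM in muscle, and its differences of -0.73 (SE 0.33) and -0.39 (SE 0.25) did not pass (adjusted p = 0.0671 and 0.203).

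SLC25A46, which acts in the shape and fusion of mitochondria, had 13.7 and 24.8 pooled CPM in liver and 10.4 and 12.4 CPM in muscle, and did not pass in either treatment (adjusted p = 0.682 and 0.110). Neither did the ornithine carrier SLC25A15B, with 4 and 7 UMIs in liver and 11 in muscle in each treatment. The basic amino acid carrier line SLC25A29 (2 OF 2) (Nfu_g_1_012372) had 14 UMIs in germ cell–removed livers and 0 in their muscles, at least 3.78-fold more, and did not pass (adjusted p = 0.0732).

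**Figure D5:**
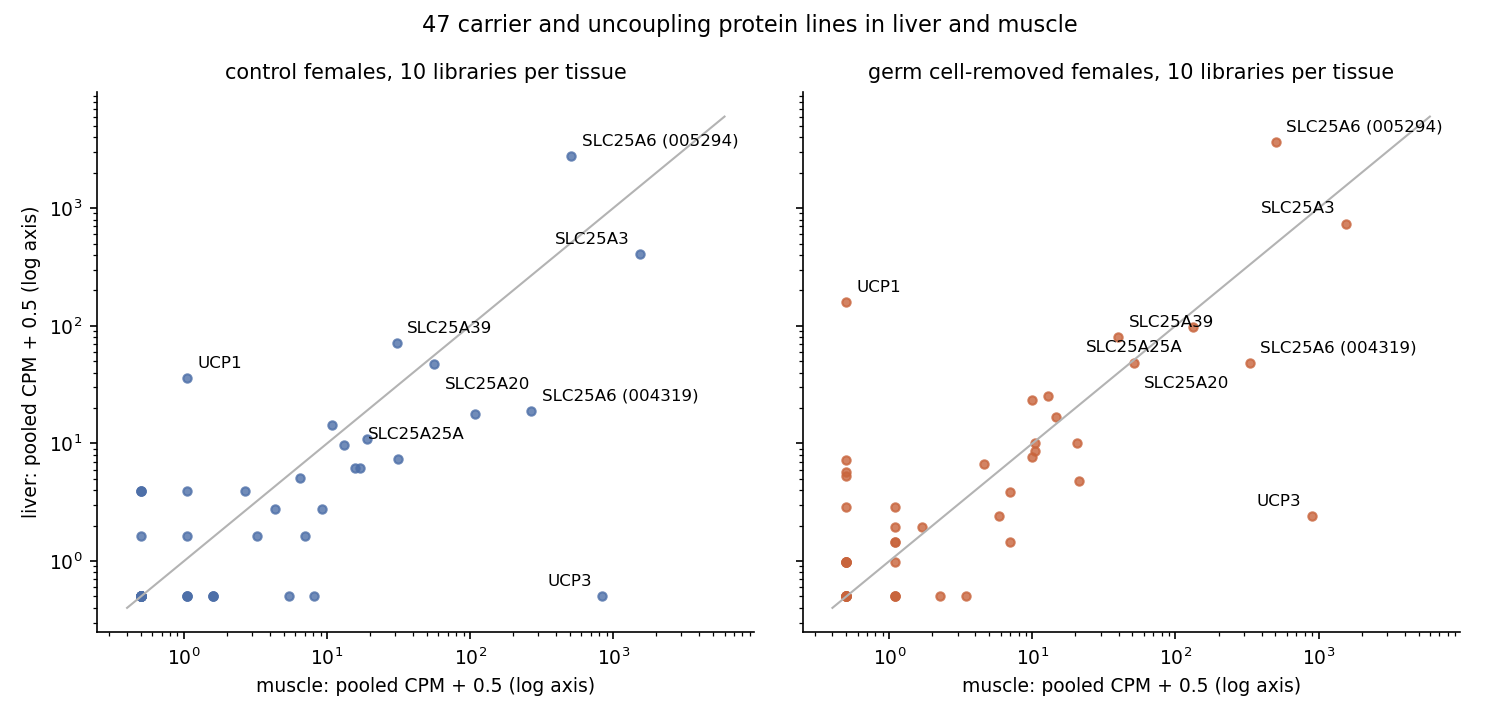
Pooled CPM of the 47 lines in female liver (vertical axis) against female muscle (horizontal axis), both on log axes with 0.5 added, for control (left) and germ cell–removed fish (right), 10 libraries per tissue. Lines on the diagonal have equal levels, UCP1 lies at the liver side, and UCP3 and the SLC25A6 line Nfu_g_1_004319 lie at the muscle side.

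A list of 26 other genes of mitochondrial transport (among them pyruvate and calcium carriers, porins, sideroflexins, ABC transporters and carnitine palmitoyltransferases), for which 25 lines matched, was counted beside the members. Between germ cell–removed and control livers of young fish, 0 of 11 passed, beside 9.64% of all genes. With age in muscle, ABCB10 was lower in germ cell–removed females (-1.16, adjusted p = 0.0160 by edgeR), 1 of 12 lines tested beside 6.28% of all genes. The porin VDAC1 was lower in control males (-0.87, adjusted p = 0.0465), 1 of 14 lines beside 5.01% of all genes. None passed in control females or germ cell–removed males, beside 4.08 and 3.42% of all genes. No line of the list passed in any comparison of sex or germ cell removal in muscle, beside 0 to 1.07% of all genes. Between the tissues, 9 of 16 passed in control females, 1 higher and 8 lower in liver. Over all genes 47% passed there, 15.6% higher and 31.4% lower. In germ cell–removed females 10 of 18 passed, 3 higher and 7 lower. Over all genes 46.5% passed there, 26.5% higher and 20% lower. The porins VDAC1, VDAC2 and VDAC3 were lower in liver in both treatments, by log2 fold changes from -4.27 to -1.49, while VDAC2 (2 OF 2) was higher in control livers (3.52, adjusted p = 0.000794).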

How the data were processed

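Per the labels and the study's methods, the authors demultiplexed the pooled reads, drew a fixed number of reads from each library marked as subsampled, extracted 10-base UMIs with UMI-tools, trimmed with Trim Galore 0.6.7, mapped to the GRZ killifish assembly with HISAT2 2.2.1 and assigned reads with featureCounts 2.0.1. They deposited whole-number UMI counts per gene, not normalized. Of 80 columns, 60 were used. The 20 male liver columns fill 20406 lines where names fill 18529, and were not used here. Depth per library (28062 to 256671) sets the precision, and a count of 3 was taken as the floor for a group at 0. Intervals are exact at 95% and cover counting error only.

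Each comparison was fitted on its own libraries with edgeR 4.0.16 in R 4.3.3 (TMM, glmQLFit and glmQLFTest, genes with at least 10 counts), with Benjamini-Hochberg adjustment over all genes tested and a threshold of 0.05. The members, roles and lists were chosen with earlier results of these data known. Named members are those called in any comparison, the member with the most counts of each role in either tissue, and the UCP genes. Library numbers were checked as pairs by correlating deviations from group means. In old male muscle, control against germ cell–removed, all 5 pairs exceeded 0.1 (0.151 to 0.407), and the blocked value is given there. Groups were read from the names of the table's columns, since the labels describe each tissue as 1 pool. Per the study's methods, the 5 libraries of a group came from 5 separate fish. Alternatives were RLE size factors, plain library sizes, the median gene at 0, a minimum of 1 count, filterByExpr, DESeq2 1.42.0, genes over 1% left out, thinning, a replicate block, all groups of a tissue in 1 fit, and each library left out. A fit with legacy off was added after the data were seen, since the planned legacy fit is the default of this edgeR release. The tests were tried on simulated data. Other steps used Python 3.11.15, numpy 2.4.6, pandas 2.3.3 and scipy 1.17.1. One result of the list of other transport genes is not reported here.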

Additional observations from a re-analysis of the deposited data

Results flagged for a closer look

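In groups of 5, a library far from the rest was looked for among 8 members with at least 50 counts in the group, and 3 of 61 groups showed one, where chance gives about 1 in 20. UCP3 of old germ cell–removed males was 1102 CPM in replicate 4 and 92.8 to 268 CPM in the other 4, and SLC25A25A was highest in the same library. SLC25A6 (Nfu_g_1_005294) of old germ cell–removed females was 846 CPM in replicate 4 and 457 to 557 CPM in the others. The same line in old germ cell–removed males was 458 CPM in replicate 5 and 526 to 545 CPM in the others.

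The effect of germ cell removal on SLC25A25A in female liver differed between the ages by 4.67 on the log2 scale (edgeR's interaction test), with mean levels of 26.3 and 12.8 CPM in young and 9.85 and 169 CPM in old control and germ cell–removed livers. The control levels were near the limit of detection. As given above, the call was lost with RLE size factors, plain library sizes, filterByExpr, thinned libraries and DESeq2.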

How the results depend on the processing

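Counts of called members are given as the reported count against the alternative. The share of all genes called under each alternative is not given here. The counts in this section are therefore not read as results about the members. On plain library sizes, 0 became 1 for age in control females, 1 became 4 for age in germ cell–removed females, 0 became 3 and 1 for age in control and germ cell–removed males, 0 became 1 and 2 became 1 for sex in young control and germ cell–removed muscle, and 1 became 0 for age by germ cell removal in liver. RLE size factors moved the last to 0 and sex in young control muscle to 1. The median gene at 0 gave 0 for germ cell removal in young liver, 0 for age in germ cell–removed female muscle and 1 for sex in young control muscle. Testing every gene with at least 1 count gave 1 for age in control females, 1 for sex in young control, 1 in old control and 2 in old germ cell–removed muscle. With filterByExpr, which tests fewer genes, the counts were 1 and 0 for germ cell removal in young and old liver, 0 for age in germ cell–removed liver and for age by germ cell removal, 0 for age in germ cell–removed female muscle, 1 and 0 for sex in young control and germ cell–removed muscle, and 6 and 8 for tissue in control and germ cell–removed females. DESeq2 gave 1 for germ cell removal in young liver, 0 for age by germ cell removal and for age in germ cell–removed female muscle, and 1 for sex in both young groups. Thinned libraries gave 0 and 1 for germ cell removal in young and old liver, 0 for age by germ cell removal, 1 for sex in both young groups and 6 for tissue in control females. Without genes over 1% of a library, sex in young control muscle gave 1. Legacy off gave 0 for age in germ cell–removed female muscle and 1 for sex in young germ cell–removed muscle, and 1 fit of all groups gave 0 for both. The cause of these moves was not tested.

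Leaving out each library gave 1 to 2 members for germ cell removal in young liver and 0 to 1 in young male muscle. For age it gave 0 to 2 in germ cell–removed females and 0 to 1 in control and in germ cell–removed males. For sex it gave 0 to 1 in young control, 0 to 2 in young germ cell–removed, 0 to 2 in old control and 0 to 1 in old germ cell–removed muscle, and for tissue 10 to 13 and 11 to 14. Of 483 alternative counts, 74 moved by over 1.5 times, and 5 of the 21 counts were moved by none. Over the 33 member calls and their 880 alternatives, 72 lost the call and 0 reversed it. The tissue comparisons supplied 11 (control) and 13 (germ cell–removed) of these calls, so the total says little of the other comparisons. Alternatives that left a member untested, as filterByExpr did, are not among the 880.

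With the replicate number as a block, the count was 1 for germ cell removal in old male muscle, 0 for age in germ cell–removed female muscle, 1 for sex in young control and 2 in old germ cell–removed muscle. In no comparison outside old male muscle did every same-numbered pair exceed a correlation of 0.1. Between control and germ cell–removed old female muscle, 3 of 5 pairs did. Whether the numbers mark a pairing in any comparison is not known, so nothing is read from these blocked counts.

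Control livers of 28062 to 180764 UMIs left most members at a few counts, which sets the precision of every liver comparison.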
